A study of Mus musculus with 22 samples.

Results

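Markers by which fibroblasts and cancer-associated fibroblasts (CAFs) are recognised were followed through sorted populations of mouse tumor stroma. They are *Fap*, *Pdpn*, *Thy1*, *Dpt*, *Pi16*, *Dpp4*, *Cd34*, *Ly6a* and *Ly6c1*, found by their symbols through the Ensembl gene identifiers of the count files, which makes 9 of the 41388 genes counted. Of these, 8 had reads in all 22 libraries and passed the filter on low counts, as they also would have in the CD45+ libraries alone. *Pdpn* had no read in any library and was not tested.

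The libraries came from stroma of breast tumors grown in C57BL/6 mice of postnatal day 56. All mice carried Osx-cre, a doxycycline-repressible Cre driven by the *Sp7* (Osterix) promoter, and the Ai9 reporter, which marks every cell whose lineage expressed Cre with TdTomato (TdT). The study states that its experiments after the first ones used Osx-cre;TdT mice fed doxycycline, a diet given up to weaning that holds the Cre off until then. After separation from GFP+ tumor cells, stromal cells were sorted by TdT and CD45, the pan-leukocyte antigen, into TdT single positive (TdT+;CD45-), double negative (TdT-;CD45-), double positive (TdT+;CD45+) and CD45 single positive (TdT-;CD45+) cells. The mice were Osx-cre;Ai9 (wild type, 4 inoculated) or Cdh2-cKO;Ai9 (6 inoculated), the second a conditional knockout of *Cdh2* (N-cadherin), and each genotype gave 2 TdT single positive libraries and 3 of each other population. The labels call the tumors orthotopic MMTV-BO1, the stated design subcutaneous, and the study describes subcutaneous PyMT-BO1 tumors.

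The libraries held 16594228 to 26784003 counted reads. Levels are given as normalized CPM (counts per 1000000 reads, scaled with TMM factors), or as RPKM (CPM per kilobase of exon) where genes are compared. *Ptprc*, which encodes CD45, was at 472 to 1821 CPM in the CD45+ libraries and at 2.45 to 337 in the CD45- ones. The highest CD45- values, 337 and 164 CPM, were those of the wild type double negative replicate 3 and the Cdh2-cKO TdT single positive replicate 1, and 10 macrophage genes summed to 9222 and 6769 CPM there. The medians of their populations were 298 CPM in double negative and 2508 CPM in TdT single positive libraries. The wild type CD45 single positive replicate 2 was rich in lymphocyte transcripts, with 10 T cell genes summing to 3111 CPM (median of its population 53.9) and 6 plasmacytoid dendritic or B cell genes to 3556 CPM (median 158). Fibroblast genes were higher in the CD45- fraction, which the labels define by the sort and not as fibroblasts. *Col1a1*, *Col1a2*, *Col3a1*, *Dcn*, *Lum* and *Pdgfra* were detected in every population. They summed to at least 4223 CPM in each CD45- library and at most 213 CPM in each CD45+ library. *Sp7* had 3 reads in all libraries together, all of them in TdT- libraries. They were in the wild type double negative replicates 1 and 2 and the Cdh2-cKO CD45 single positive replicate 2. In CD45- cells the libraries labelled Cdh2-cKO did not have less *Cdh2* but higher values, without a call. In TdT single positive cells it was at 17.2 and 13.1 CPM against 9.14 and 5.19 in the wild type ones (log2 1.08 ± 0.84 SE, edgeR adjusted p = 0.668). In double negative cells it was at 12.5, 18.4 and 14.2 against 6.02, 7.47 and 4.52 CPM (log2 1.32 ± 0.69 SE, edgeR adjusted p = 0.625). In double positive cells, the TdT+ cells of the CD45+ fraction, it was at 0.607, 0 and 0.421 CPM in Cdh2-cKO and 0.713, 0.351 and 0.422 CPM in wild type libraries (log2 -0.55 ± 0.85 SE, edgeR adjusted p = 1). Counts over all exons do not test a deletion of some of them, so the genotype is given as labelled throughout.

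Fibroblasts build and remodel connective tissue and are recognised by a combination of surface proteins, since no single one is theirs alone. FAP and DPP4 are paralogous serine proteases of the cell membrane, and FAP with podoplanin (*Pdpn*) is a classical marker of CAFs. THY1 (CD90), LY6A (Sca-1) and LY6C are proteins held in the membrane by a glycolipid anchor, found on mesenchymal cells but also on T cells, endothelium or monocytes. CD34 is a sialomucin of blood progenitors, endothelium and many tissue fibroblasts. Dermatopontin (*Dpt*) is a secreted matrix protein and peptidase inhibitor 16 (*Pi16*) a member of the CAP protein family, and both mark the adventitial fibroblast state, present in many tissues, to which *Dpp4*, *Cd34* and the *Ly6* genes are also assigned.

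The loci, on GRCm38 as the files give them, are *Fap* (chromosome 2:62500943-62574075, minus strand), *Dpp4* (2:62330073-62412231, minus strand), *Pdpn* (4:143267431-143299564, minus strand), *Thy1* (9:44043384-44048579, plus strand), *Dpt* (1:164796732-164824266, plus strand), *Pi16* (17:29318877-29329413, plus strand), *Cd34* (1:194938821-194961292, plus strand), *Ly6a* (15:74994877-74998031, minus strand) and *Ly6c1* (15:75044018-75048830, minus strand). *Ly6a* and *Ly6c1* are neighbours of *Ly6c2* (15:75108158-75111970, minus strand), a near copy of *Ly6c1* carried by monocytes and T cells. The coding sequences of *Ly6c1* and *Ly6c2*, both 393 bases, differed at 9 positions (97.7% identity), with an identical run of up to 188 bases. The 60 coding bases that hold most of these differences, positions 6 to 65 from the start codon and within the first coding exon, are shown because reads over them tell the genes apart. Capitals mark the 6 differing bases, read on the minus strand of chromosome 15 (75048447 to 75048506 for *Ly6c1* and 75111603 to 75111662 for *Ly6c2*).
Ly6c1: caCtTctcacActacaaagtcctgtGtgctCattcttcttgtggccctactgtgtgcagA
Ly6c2: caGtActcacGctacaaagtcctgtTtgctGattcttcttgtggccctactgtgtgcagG
The reads were single and 50 bases long, and only uniquely aligned ones were counted. Of the distinct windows of 50 bases in the annotated *Ly6c1* transcripts, 32.8% also occurred in *Ly6a*, *Ly6c2* or *Ly6i*. For *Ly6a* the share was 19.0%, for the other members at most 3.88%, and the 2.92% of *Dpp4* lay in the overlapping *Gm13561*. Part of the reads of both *Ly6* members was thus outside what could be counted.

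The zero of *Pdpn* cannot be read as absence. The count files hold a copy of *Pdpn* on an alternate assembly patch with the same coordinates and length, and a read that fits both copies equally is not uniquely aligned. The copy was at 0 as well, as were all 17 features of that patch. Of 44 genes with such a copy on a patch, 40 (90.9%) were at 0 in all libraries, against 27.1% of all genes in the files. Among protein-coding genes the shares were 82.6% (19 of 23) and 12%. *Pdpn* is therefore treated as not measured.

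The first comparison asks where the markers are expressed, by setting the 10 CD45- against the 12 CD45+ libraries, averaged over TdT and genotype. All 8 measured members were higher in CD45- cells, from 4.83-fold for *Dpp4* to 214-fold for *Dpt* (edgeR quasi-likelihood test, adjusted p = 3.62e-04 or less). The background is high: 31.1% of the 15043 genes tested were called higher in CD45- cells. In 5 of the 8 (*Fap*, *Dpt*, *Pi16*, *Cd34* and *Ly6c1*) every CD45- library was above every CD45+ library, as for 11.0% of genes tested. *Thy1*, *Dpp4* and *Ly6a* overlapped, each through the lymphocyte-rich CD45 single positive library, and *Ly6a* also through a double positive library. The same 8 were called by limma's voom and by DESeq2. They were also called without the 3 libraries that stand apart, an alternative chosen after seeing the data, with log2 differences of 2.99 to 8.27. These libraries are the wild type double negative replicate 3, the Cdh2-cKO TdT single positive replicate 1 and the wild type CD45 single positive replicate 2. Leaving out the lymphocyte-rich library alone gave log2 differences of 5.98 for *Thy1* (5.06 with it), 6.61 for *Ly6c1* (5.90) and 2.85 for *Dpp4* (2.27).

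**Figure D1:**
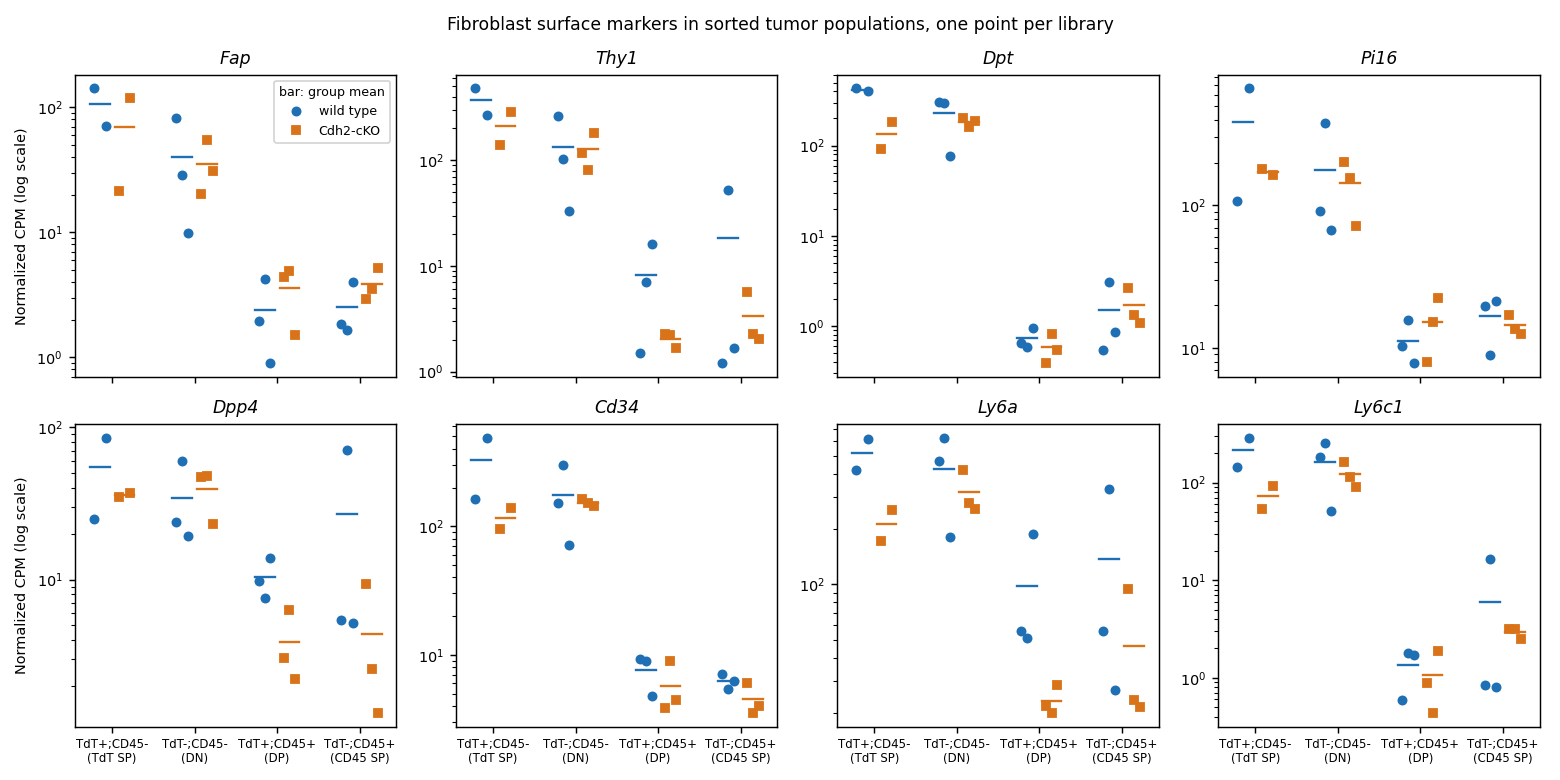
Normalized CPM (log scale) of the 8 measured members in the 4 sorted populations, 1 point per library, wild type as circles and Cdh2-cKO as squares, bars at group means. The CD45- libraries sit above the CD45+ ones for each gene, except where a wild type CD45+ library reaches 52.6 CPM for *Thy1*, 70.3 for *Dpp4* and 332 for *Ly6a*, and another 187 for *Ly6a*.

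Of the proteases, *Fap* was at 142 and 71.4 CPM in the wild type and at 21.5 and 118 in the Cdh2-cKO TdT single positive libraries. In double negative cells it was at 81.5, 28.9 and 9.91 CPM (wild type) and 20.4, 55.2 and 30.7 CPM (Cdh2-cKO). In the 12 CD45+ libraries the lowest, median and highest values were 0.897, 3.23 and 5.19 CPM. The groups did not overlap, and *Fap* was 18.8-fold higher in CD45- cells (log2 difference 4.24 ± 0.42 SE, adjusted p = 1.88e-07). Its paralog *Dpp4* was at 25.1 and 84.8 CPM in wild type and 34.7 and 36.8 CPM in Cdh2-cKO TdT single positive libraries. Double negative libraries gave 23.9, 59.8 and 19.3 CPM (wild type) and 47.2, 47.7 and 23.2 CPM (Cdh2-cKO). Its CD45+ values of 1.34, 5.92 and 70.3 CPM (lowest, median, highest) overlapped with these. The smallest difference of the members was this one, 4.83-fold (log2 2.27 ± 0.46 SE, adjusted p = 3.62e-04), and it was not called within the wild type groups alone (log2 1.37, edgeR adjusted p = 0.0817, the highest of its 30 alternatives).

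Of the glycolipid-anchored proteins, *Thy1* was at 480.3 and 271 CPM in wild type and 139 and 284 CPM in Cdh2-cKO TdT single positive libraries. The double negative values were 265, 102 and 32.9 CPM (wild type) and 117, 80.9 and 182 CPM (Cdh2-cKO), against 1.20, 2.25 and 52.6 CPM (lowest, median, highest) in the CD45+ libraries. The fold was 33.5 (log2 5.06 ± 0.63 SE, adjusted p = 2.53e-06), and the groups overlapped in 1 CD45+ library. *Ly6a*, which had the highest level per length of the members, was at 418 and 613 CPM (wild type) and 172 and 253 CPM (Cdh2-cKO) in TdT single positive cells. In double negative cells it was at 468, 626 and 181 CPM (wild type) and 419.6, 276 and 256 CPM (Cdh2-cKO), and its CD45+ values were 20.1, 39.9 and 332 CPM (lowest, median, highest). That is a 5.62-fold difference (log2 2.49 ± 0.41 SE, adjusted p = 5.12e-05), the second smallest of the members. *Ly6c1* was at 146 and 288 CPM in wild type and 54.0 and 93.2 CPM in Cdh2-cKO TdT single positive libraries. In double negative libraries it was at 185, 253 and 51.0 CPM (wild type) and 164, 115 and 90.3 CPM (Cdh2-cKO), and in CD45+ libraries at 0.437, 1.75 and 16.3 CPM (lowest, median, highest). No CD45+ library reached a CD45- one, and the fold was 59.6 (log2 5.90 ± 0.52 SE, adjusted p = 3.72e-08).

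*Cd34* was at 162 and 487 CPM in wild type and 95.0 and 138 CPM in Cdh2-cKO TdT single positive libraries, with the wild type replicate 2 far above the others. Double negative values were 152, 298 and 71.3 CPM (wild type) and 162, 152 and 144 CPM (Cdh2-cKO). The CD45+ values of 3.54, 5.69 and 9.27 CPM (lowest, median, highest) were lower throughout, a 29.9-fold difference (log2 4.90 ± 0.27 SE, adjusted p = 1.78e-10). *Cd34* had the smallest standard error of the 8.

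The last members are *Dpt* and *Pi16*, the genes for the matrix protein and the CAP family protein. *Dpt* was at 432 and 403 CPM (wild type) and 90.7 and 181 CPM (Cdh2-cKO) in TdT single positive cells. It was at 306, 299 and 75.9 CPM (wild type) and 203, 159 and 187 CPM (Cdh2-cKO) in double negative cells, and at 0.386, 0.843 and 3.09 CPM (lowest, median, highest) in CD45+ cells. Its 214-fold difference (log2 7.74 ± 0.36 SE, adjusted p = 4.12e-11) was the largest of the members. *Pi16* ranged more between libraries, at 107 and 664 CPM in wild type and 179.9 and 163 CPM in Cdh2-cKO TdT single positive libraries. Double negative libraries gave 91.3, 377 and 67.5 CPM (wild type) and 202, 156 and 71.3 CPM (Cdh2-cKO), and CD45+ libraries 7.81, 14.3 and 22.5 CPM (lowest, median, highest). The fold was 14.2 (log2 3.83 ± 0.37 SE, adjusted p = 1.16e-07), without overlap.

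Fibroblast transcripts in CD45+ libraries were near a common low share for some members and not for others. The mean CD45+ level was 0.481% of the mean CD45- level for *Dpt*, within the 0.455% to 2.28% (median 0.633%) of 12 other pan-fibroblast genes such as *Col1a1* (0.528%) and *Dcn* (0.578%). *Ly6c1* was also within that range, at 1.97%. *Cd34* (3.25%), *Thy1* (4.12%), *Fap* (5.33%), *Pi16* (6.91%), *Ly6a* (20.8%) and *Dpp4* (28.4%) were above it. Without the lymphocyte-rich library the 12 genes were at 0.442% to 2.38%, and *Thy1* (2.04%) was within that range, *Ly6c1* (1.12%) stayed within it and *Dpt* (0.405%) was below it. *Cd34* (3.28%), *Fap* (5.56%), *Pi16* (7.15%), *Ly6a* (14.5%) and *Dpp4* (15.1%) remained above. In CD45+ cells *Pi16* thus had a mean of 14.4 ± 5.09 CPM (SD, n = 12), and *Dpt* one of 1.13 ± 0.860 CPM, while in CD45- cells they were at 208 ± 184 and 234 ± 122 CPM (SD, n = 10). The part of carried-over cells or free RNA in these levels was not tested.

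Across the 12 CD45+ libraries *Thy1*, *Dpp4* and *Ly6a* moved with lymphocyte genes. With the mean log2 level of 10 T cell genes (*Cd3e*, *Cd2*, *Lck* and others) the Pearson's r was 0.94 for *Thy1*, 0.92 for *Dpp4* and 0.88 for *Ly6a* (Spearman's rho 0.67, 0.92 and 0.67, n = 12). Without the lymphocyte-rich library r was 0.86, 0.81 and 0.78 and rho 0.57, 0.90 and 0.57 (n = 11). The plasmacytoid dendritic or B cell genes, also highest in that library, gave r = 0.84, 0.82 and 0.76 (n = 12), and 0.84, 0.65 and 0.78 without it (n = 11, rho 0.72, 0.62 and 0.31). The part of each of these cell types in the 3 members' levels was not tested. That library was at 52.6 CPM for *Thy1*, 70.3 for *Dpp4* and 332 for *Ly6a*, and the next highest CD45+ values, 16.3, 13.9 and 187 CPM, were those of the wild type double positive replicate 3, which had the second highest T cell sum (702 CPM). For *Fap* r was -0.47, for *Pi16* -0.57 and for *Cd34* 0.14. *Dpt* and *Ly6c1*, at 0.46 and 0.56 in all 12, were at 0.02 and -0.00 without that library. These are descriptions over libraries of 2 populations and 2 genotypes.

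**Figure D2:**
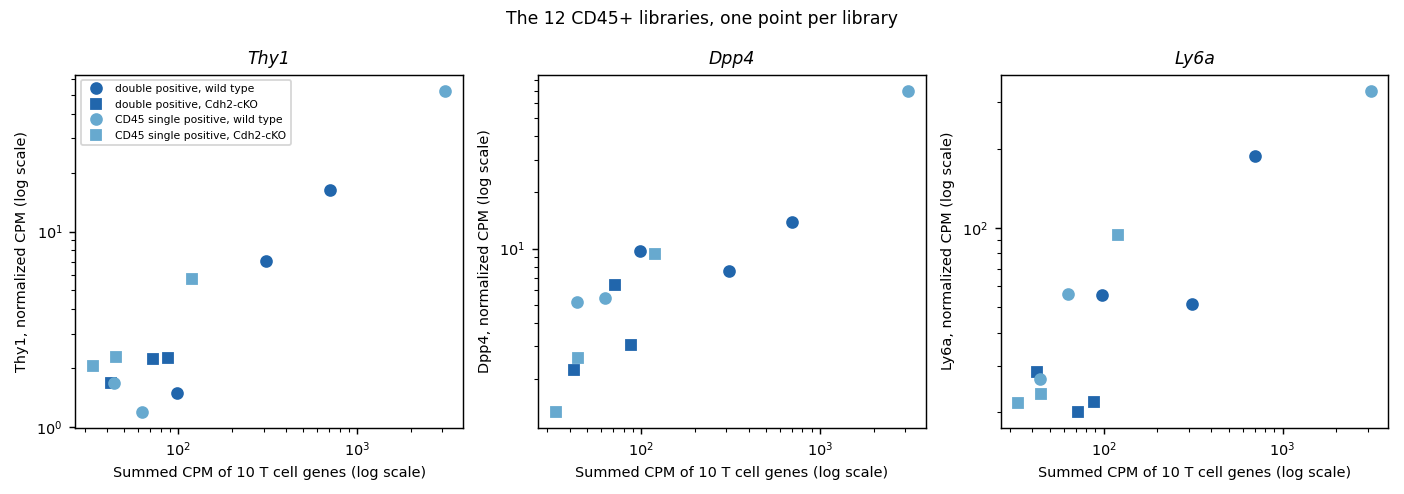
Normalized CPM of *Thy1*, *Dpp4* and *Ly6a* against the summed CPM of 10 T cell genes in the 12 CD45+ libraries (both axes log scale), coloured by population, circles for wild type and squares for Cdh2-cKO. The library with the highest T cell sum, 3111 CPM, has the highest value of all 3 genes.

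*Ly6c1* and its near copy *Ly6c2* differed in opposite directions between CD45- and CD45+ cells. *Ly6c2* was 11.0-fold lower in CD45- cells (log2 -3.45 ± 0.58 SE, edgeR adjusted p = 5.73e-05), where *Ly6c1* was 59.6-fold higher. In CD45- libraries *Ly6c1* had between 926 and 7436 reads and *Ly6c2* between 4 and 114. In CD45+ libraries *Ly6c1* had between 9 and 284 reads and *Ly6c2* between 64 and 3117. There were 8.12 to 715 *Ly6c1* reads per *Ly6c2* read in each CD45- library, and 1.64 to 50.1 *Ly6c2* reads per *Ly6c1* read in each CD45+ library. The 2 CD45- libraries with the fewest *Ly6c1* reads per *Ly6c2* read (8.12 and 16.3) were those with the most *Ptprc*. The 6 bases in capitals above, and the 3 other coding differences, are among those that assign such reads.

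**Figure D3:**
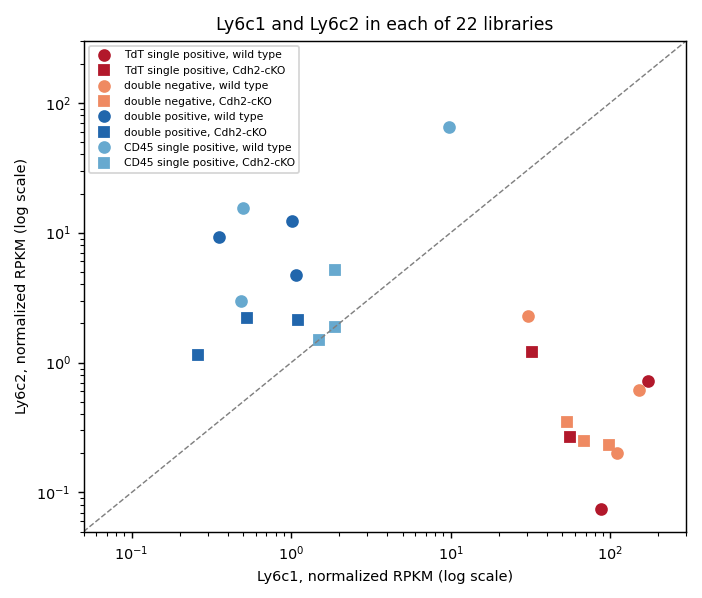
Level per length (RPKM from normalized CPM, log scales) of *Ly6c2* against *Ly6c1* in the 22 libraries, coloured by population, circles for wild type and squares for Cdh2-cKO, with the line of equal level dashed. The CD45- libraries lie below the line, the CD45+ libraries above it, of which 2 Cdh2-cKO CD45 single positive libraries lie almost on it.

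The second question is whether TdT+ and TdT- cells of the CD45- fraction differ in these markers. None of the 8 measured members was called between TdT single positive and double negative cells (edgeR, lowest adjusted p = 0.257), where 1.89% of genes tested were called. *Fap* had the lowest unadjusted p of the 8 (0.0472), the only one under 0.05. Its log2 difference was 1.19 ± 0.56 SE, a ratio of 2.29, with 21.5 to 142 CPM in the 4 TdT single positive libraries and 9.91 to 81.5 CPM in the 6 double negative ones. *Thy1* followed with 1.12 ± 0.81 SE and *Pi16* with 0.69 ± 0.50 SE (adjusted p = 0.465 and 0.472). The other 5 were between -0.16 (*Ly6c1*) and 0.27 (*Dpp4*), with standard errors of 0.36 to 0.67. Limma's voom and DESeq2 also called none. The 4 TdT single positive libraries have a double negative library of the same genotype and replicate number. In each of these 4 pairs the deviations from the group means correlated at over 0.1 (r = 0.113 to 0.593 over genes). The wild type TdT single positive replicate 2 correlated more with the double negative replicate 3 (r = 0.427) than with replicate 2 (0.216). Whether equal numbers mark true pairs is thus not settled. *Fap* and *Thy1* were higher in the TdT single positive library in 4 of 4 pairs, *Dpt* and *Pi16* in 3, *Dpp4* and *Cd34* in 2, *Ly6c1* in 1 and *Ly6a* in 0. With the replicate number as a block edgeR called 187 genes in place of 284 and none of the members, with log2 differences of 1.01 for *Fap* and 1.07 for *Thy1* (edgeR adjusted p = 0.339 and 0.554) and a turned sign for *Dpp4* (-0.10). For *Pi16*, *Dpp4* and *Cd34* the sign rested on the wild type TdT single positive replicate 2, without which the log2 differences were -0.24, -0.29 and -0.24. For *Dpt* it turned without the Cdh2-cKO TdT single positive replicate 2 (-0.07) and for *Ly6a* without the wild type double negative replicate 2 (0.04). For *Ly6c1* it turned without the wild type double negative replicate 2 (0.07), the wild type TdT single positive replicate 1 (0.04) or the Cdh2-cKO TdT single positive replicate 1 (0.01). The normal 95% intervals of the log2 difference were wide, from -0.46 to 2.70 for *Thy1* and from -1.43 to 1.10 for *Ly6c1*.

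**Figure D4:**
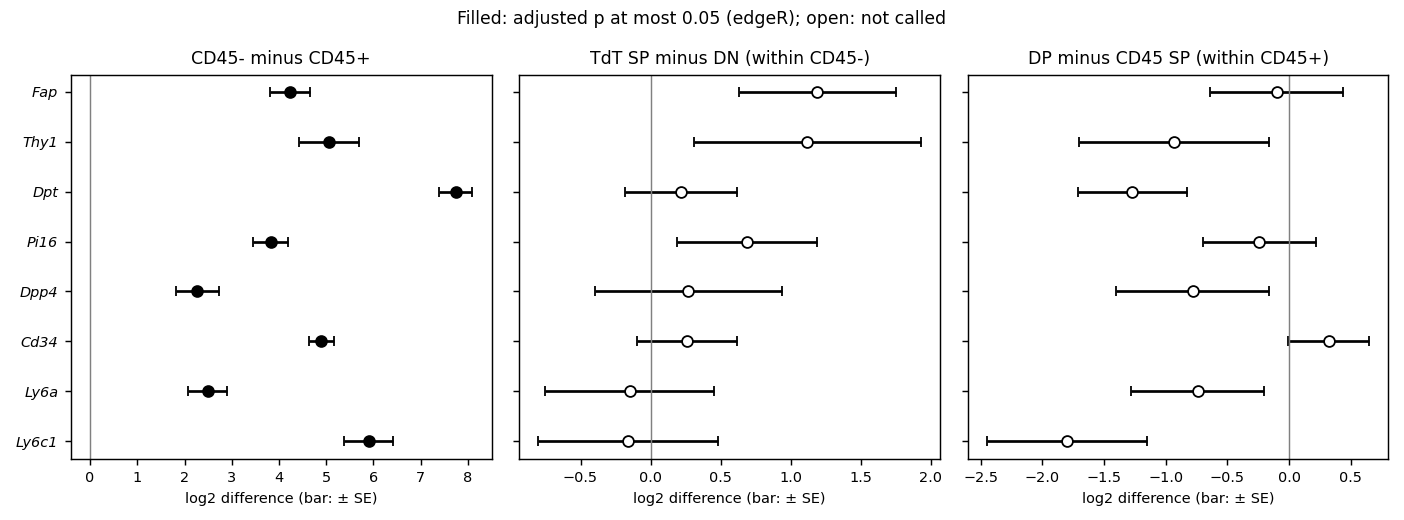
Log2 differences of the 8 measured members (points, bars ± SE) for CD45- minus CD45+, TdT single positive minus double negative, and double positive minus CD45 single positive, filled where the adjusted p was at most 0.05. The 8 values of the first panel lie between 2.27 and 7.74 and are filled, while those of the other panels are open and lie between -1.80 and 1.19.

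The spread within the CD45- fraction was wide, and the markers did not share it. The highest library was 14.3 times the lowest for *Fap*, 14.6 times for *Thy1*, 9.84 for *Pi16*, 6.83 for *Cd34*, 5.69 for *Dpt*, 5.65 for *Ly6c1*, 4.40 for *Dpp4* and 3.64 for *Ly6a*. The lowest library was the leukocyte-rich wild type double negative replicate 3 for 7 of the 8. *Fap*, *Thy1* and *Dpt* were highest in the wild type TdT single positive replicate 1 (142, 480.3 and 432 CPM). *Pi16*, *Dpp4*, *Cd34* and *Ly6c1* were highest in replicate 2 of that group (664, 84.8, 487 and 288 CPM), and *Ly6a* in the wild type double negative replicate 2 (626 CPM). Reads of *Pi16* per read of *Fap* ranged from 0.756 in that replicate 1 to 13.1 in the wild type double negative replicate 2. Bulk libraries cannot tell fewer cells of a kind from less RNA per cell.

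The members fell into sets over the 10 CD45- libraries, as a description of libraries from 2 populations and 2 genotypes. These libraries differ in leukocyte and in luminal epithelial transcripts, and the part of either in the sets was not tested. With the mean of the luminal epithelial genes r was -0.81 for *Dpt*, -0.72 for *Thy1*, -0.71 for *Fap* and -0.57 for *Ly6a*. It was -0.53 for *Ly6c1* (rho -0.73), -0.40 for *Cd34* (rho -0.76), -0.05 for *Pi16* and 0.03 for *Dpp4*. With the mean of 10 pan-leukocyte genes r was -0.62 for *Dpt*, -0.48 to -0.47 for *Fap*, *Thy1*, *Ly6a* and *Ly6c1*, -0.21 for *Cd34*, 0.11 for *Dpp4* and 0.21 for *Pi16*. *Pi16* and *Dpp4* had a Pearson's r of 0.96 (Spearman's rho 0.92, and r = 0.92 over the 8 libraries left without the 2 farthest from the median of *Pi16*). *Ly6a* and *Ly6c1* had r = 0.99 (rho 0.96, and 0.98 over 8), and *Cd34* followed *Ly6c1* at 0.91 (rho 0.94, and 0.88 over 8). *Dpt* was near both *Ly6* members (0.90 and 0.89) and at 0.80 with *Cd34*. It was also at 0.74 with *Thy1* and 0.71 with *Fap* (0.37 and 0.40 over 8), so the sets were not separate. *Fap* and *Thy1* had r = 0.85 (rho 0.83, and 0.65 over 8). Between the *Fap* and *Thy1* pair and the *Pi16* and *Dpp4* pair r was 0.09 to 0.17. *Cd34* with *Pi16* was at 0.82, but at 0.30 over 8, so that this value rests on the 2 libraries left out.

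**Figure D5:**
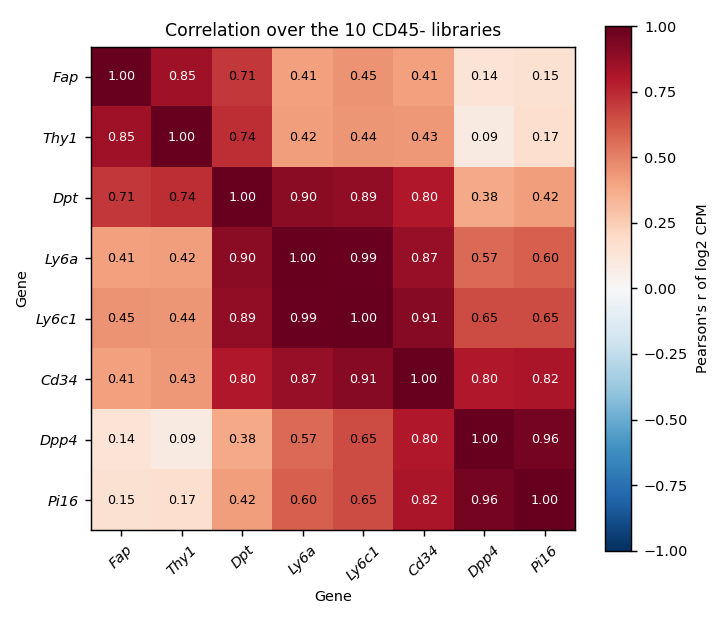
Pearson's r of log2 CPM between each pair of the 8 measured members over the 10 CD45- libraries, red for positive values. *Pi16* with *Dpp4* (0.96) and *Ly6a* with *Ly6c1* (0.99) stand at the top, and *Fap* or *Thy1* with *Pi16* or *Dpp4* (0.09 to 0.17) at the bottom.

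Against gene lists, *Thy1* and *Fap* moved with the mean log2 level of 12 other pan-fibroblast genes (r = 0.98 and 0.86, n = 10). *Dpt* was at 0.75, and *Pi16* and *Dpp4* hardly moved with them (0.10 and 0.01). With 12 genes of myofibroblast-like CAFs r was as high for *Thy1* and *Fap* (0.98 and 0.88). It was 0.73 for *Dpt*, 0.02 for *Pi16* and -0.04 for *Dpp4*. With 10 cytokine and chemokine genes of inflammatory CAFs these 5 were at 0.59, 0.46, 0.45, -0.45 and -0.57. With 8 pericyte and smooth muscle genes r was 0.93 for *Thy1*, 0.84 for *Dpt* and 0.81 for *Fap*, and 0.20 to 0.62 for the other 5. The part of such cells in the members' levels was not tested. *Pi16*, *Dpp4*, *Dpt*, *Cd34*, *Ly6a* and *Ly6c1* moved with 12 other genes of the adventitial state, such as *Cd248*, *Sema3c* and *Mfap5*. Their r was 0.77, 0.75, 0.86, 0.93, 0.88 and 0.92, and that of *Fap* and *Thy1* was lower (0.65 and 0.57). Spearman's rho was 0.82 for *Dpt*, 0.85 for *Cd34* and *Ly6a*, and 0.92 for *Ly6c1*. By rho *Pi16* (0.54) and *Dpp4* (0.62) were no higher than *Fap* (0.62), and *Thy1* was at 0.48. With the mean of 10 endothelial genes r was 0.64 to 0.69 for *Cd34*, *Ly6a*, *Ly6c1* and *Dpt*, and 0.17 to 0.45 for the other 4. Summed endothelial genes were at 57.2 to 542 CPM in CD45- libraries, and their part in the level of *Cd34*, *Ly6a* or *Ly6c1* was not tested.

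The next values come from the 3 highest for each member over the genes tested, and so are high by selection. The highest r that other genes reach was not computed. Among the genes tested other than the members themselves, which were left out of this search, those most like each member over the 10 CD45- libraries were *Col15a1*, *Tsku* and *Snai2* for *Fap* (r = 0.98 for all 3), and *Ociad2*, *Msrb3* and *Creb3l2* for *Thy1* (0.99 for all 3). They were *Mgat3*, *Dpep1* and *Entpd2* for *Dpt* (0.98, 0.98 and 0.97), and *Scara5*, *1700019D03Rik* and *Zbtb16* for *Pi16* (0.94, 0.92 and 0.92). *Dpp4* was nearest to *Aldh1a3*, *Irf2bp1* and *Hspa12b* (0.94, 0.92 and 0.92), below its r of 0.96 with *Pi16*, as *Ly6a* and *Ly6c1* were nearer to each other than to any gene below. *Cd34* was nearest to *Aldh1a1*, *Mustn1* and *Prg4* (0.98, 0.97 and 0.97), *Ly6a* to *Cxcl13*, *Apod* and *Lbp* (0.96, 0.96 and 0.95), and *Ly6c1* to *Lbp*, *Efemp1* and *Mustn1* (0.96, 0.96 and 0.95). Over all 22 libraries, where the CD45 difference enters, the nearest were *Fbn2*, *Tsku* and *Yipf5* for *Fap* (0.97 each), *Akap12* and *Ptpn13* for *Thy1* (0.99 and 0.98), and *Mfap5*, *Efemp1* and *Dcn* for *Dpt* (1.0, 1.0 and 0.99). For *Pi16* they were *Crispld1*, *1700019D03Rik* and *Aldh1a1* (0.96, 0.96 and 0.95), for *Dpp4* *Klk8*, *Cnn2* and *Pitpnm2* (0.90 each), and for *Cd34* *Mrgprf*, *Scara5* and *Olfml1* (0.98, 0.98 and 0.97). *Ly6a* was nearest to *Ifi205*, *C3* and *Axin2* (0.95, 0.94 and 0.93), and *Ly6c1* to *Apod*, *Efemp1* and *Pfn2* (0.98 each).

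Because *Pi16* and *Dpp4*, on different chromosomes, moved together over the CD45- libraries, the 240 bases from 250 to 11 bases before their RefSeq starts are shown (GRCm38.p6, chr17:29318632-29318871 on the plus strand and chr2:62412242-62412481 on the minus strand, RefSeq promoter table, which held 6 of the 9 members). Capitals mark matches, on either strand, of 4 motifs: TATAAA (held by 12.1% of such windows in all 32851 promoters), CCAAT (33%), the AP-1 motif TGANTCA (6.58%) and the E-box CANNTG (65.0%).
Pi16: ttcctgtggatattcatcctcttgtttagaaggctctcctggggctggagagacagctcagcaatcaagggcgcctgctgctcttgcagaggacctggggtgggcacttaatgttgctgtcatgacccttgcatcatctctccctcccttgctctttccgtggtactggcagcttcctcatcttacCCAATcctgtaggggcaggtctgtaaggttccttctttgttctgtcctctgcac
Dpp4: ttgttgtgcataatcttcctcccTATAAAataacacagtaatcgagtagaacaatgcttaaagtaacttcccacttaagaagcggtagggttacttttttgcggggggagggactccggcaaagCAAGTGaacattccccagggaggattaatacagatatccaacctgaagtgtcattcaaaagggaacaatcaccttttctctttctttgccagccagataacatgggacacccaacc
The *Pi16* window held 1 CCAAT box and none of the others, and the *Dpp4* window 1 TATAAA and 1 E-box. No motif of the 4 was in both, which says only that these letters are not shared in these windows. The G and C content was 53.3% and 43.3%.

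Relative to the other pan-fibroblast genes of the same library, the members had overlapping ranges in TdT single positive and double negative cells. The log2 level of *Thy1* minus the mean of the 12 genes was -2.41 to -1.96 (median -2.33) in the 4 TdT single positive libraries and -2.90 to -2.19 (median -2.39) in the 6 double negative ones. For *Fap* the medians were -4.21 and -4.40. For *Dpt* they were -2.59 and -1.69, for *Ly6a* -2.08 and -0.66, and for *Ly6c1* -3.63 and -2.21. No test was run on these ratios.

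Per length, *Ly6a* was the highest member in every population. Its mean was 308 ± 137 RPKM in double negative (SD, n = 6) and 302 ± 162 RPKM in TdT single positive cells (SD, n = 4), followed by 76.7 ± 100.1 in CD45 single positive and 50.3 ± 52.7 in double positive cells (both n = 6). In TdT single positive cells the order went on with *Thy1* (169 ± 81.0 RPKM) and *Dpt* (169 ± 102), then *Ly6c1* (86.7 ± 61.0), *Cd34* (84.2 ± 68.6), *Pi16* (69.9 ± 65.0), *Fap* (15.6 ± 9.40) and *Dpp4* (7.18 ± 4.24). The double negative means were 125 ± 53.5 RPKM for *Dpt*, 85.3 ± 43.3 for *Ly6c1*, 74.9 ± 47.3 for *Thy1*, 62.3 ± 28.2 for *Cd34*, 40.3 ± 29.7 for *Pi16*, 6.67 ± 4.62 for *Fap* and 5.83 ± 2.66 for *Dpp4*. For each member the ranges of the 2 CD45- populations overlapped, and so did those of the 2 CD45+ populations. For *Fap*, *Dpt*, *Pi16*, *Cd34* and *Ly6c1* the lower CD45- population was separate from the higher CD45+ one. Below these, *Fap* was at 0.565 ± 0.237 RPKM in CD45 single positive and 0.527 ± 0.304 in double positive cells, and *Dpp4* at 2.49 ± 4.25 and 1.13 ± 0.689.

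Within the CD45+ fraction, none of the 8 was called between double positive and CD45 single positive cells (edgeR, adjusted p = 1 for each), where 0.00665% of genes tested, 1 gene, were called. *Dpt* and *Ly6c1* had an unadjusted p under 0.05. *Dpt* was at 0.386, 0.619 and 0.950 CPM in double positive and 0.541, 1.21 and 3.09 CPM in CD45 single positive libraries (lowest, median, highest), without a call. The log2 difference of *Dpt* was -1.27 ± 0.44 SE (edgeR, unadjusted p = 0.0104). *Ly6c1* was at 0.437, 1.29 and 1.86 and 0.808, 2.81 and 16.3 CPM. The log2 difference was -1.80 ± 0.65 SE (edgeR, unadjusted p = 0.0132). Without the lymphocyte-rich library it was -0.38, and that of *Dpt* -0.73. The remaining 6 were between -0.93 and 0.32. Limma's voom and DESeq2 called none either. For *Thy1*, *Dpp4* and *Ly6a* the sign turned without the lymphocyte-rich library, from -0.93, -0.78 and -0.74 to 0.91, 0.39 and 0.13.

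The third question is whether the genotype shifts the markers. In no population was any of the 8 called between Cdh2-cKO and wild type libraries by edgeR, voom or DESeq2. The share of genes tested that edgeR called was 0.00665% in TdT single positive cells and 0 in the other 3 populations. In TdT single positive cells all 8 log2 differences were below 0, from -1.62 to -0.61. *Dpt* and *Cd34* had an unadjusted p under 0.05. *Dpt* was at 90.7 and 181 CPM in the Cdh2-cKO against 432 and 403 CPM in the wild type libraries, without overlap (log2 -1.62 ± 0.65 SE, edgeR adjusted p = 0.418). *Cd34* was at 95.0 and 138 against 162 and 487 CPM (log2 -1.48 ± 0.57 SE, edgeR adjusted p = 0.408). *Ly6a* (-1.28 ± 0.94 SE) and *Ly6c1* (-1.56 ± 1.02 SE) did not overlap either, and *Fap*, *Thy1*, *Pi16* and *Dpp4* did. The 4 members without overlap compare with 20.7% of genes tested for which both Cdh2-cKO libraries were below both wild type ones. *Ptprc* was at 164 and 89.9 CPM in the Cdh2-cKO and 2.45 and 81.2 CPM in the wild type libraries, and its part was not tested.

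In double negative cells the 8 differences were between -0.42 and 0.20, with standard errors of 0.46 to 1.03 and adjusted p of 0.993 or more (edgeR). No member had an unadjusted p under 0.05 there. In double positive cells *Ly6a* alone had one, at 21.8, 20.1 and 28.4 CPM in Cdh2-cKO and 55.8, 51.4 and 187 CPM in wild type libraries. The log2 difference was -2.06 ± 0.79 SE (edgeR, unadjusted p = 0.0182, adjusted p = 1). The summed T cell genes of these libraries were at 88.3, 72.0 and 42.3 CPM in Cdh2-cKO and 98.3, 311 and 702 CPM in wild type, and their part was not tested. In CD45 single positive cells *Dpp4* (-2.60 ± 0.91 SE) and *Thy1* (-2.46 ± 1.12 SE) had one, with edgeR adjusted p of 0.425 and 0.498. Both rested on the lymphocyte-rich wild type library. *Dpp4* was at 5.47, 70.3 and 5.17 CPM in the wild type and 9.34, 2.61 and 1.34 CPM in the Cdh2-cKO libraries, and *Thy1* at 1.20, 52.6 and 1.67 and 5.71, 2.27 and 2.05 CPM. Without it the log2 differences were -0.25 for *Dpp4* and 1.22 for *Thy1*.

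The population differences were also compared between the genotypes. For the CD45 difference no member was called (edgeR, lowest adjusted p = 0.648, background 0), and the Cdh2-cKO minus wild type values were -1.0 (*Fap*) to 1.80 (*Dpp4*). DESeq2 called 31 genes there, and edgeR 1157 at an unadjusted p under 0.05, none of them a member. For the TdT difference within CD45- cells no member was called either (lowest adjusted p = 0.637, background 0.00665%), and all 8 values were below 0, from -1.31 to -0.43, with standard errors of 0.72 to 1.64. No member had an unadjusted p under 0.05 in edgeR for it, and voom and DESeq2 called none. *Ptprc* went the other way in the same comparison (5.01 ± 1.72 SE, edgeR adjusted p = 0.216), and its part in the members' values was not tested.

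The other genes of the fibroblast programmes set the members in context. Between CD45- and CD45+ cells, all 12 other pan-fibroblast genes were higher in CD45- cells, with a median log2 difference of 7.33 against -0.06 over all genes tested. *Col1a2*, *Col1a1* and *Dcn*, of the fibrillar collagen matrix, were higher by 7.72 ± 0.38, 7.51 ± 0.37 and 7.43 ± 0.37 SE. The median of the 8 measured members was 4.57. Of 12 other genes of the adventitial state 11 were higher (median 4.11), among them *Cd248* (7.40 ± 0.32), *Mfap5* (7.39 ± 0.36) and *Sema3c* (5.02 ± 0.33), and *Anxa3* was lower (-0.96 ± 0.24). All 12 genes of myofibroblast-like CAFs were higher (median 6.69), among them *Lrrc15* (7.83 ± 0.33), *Acta2* (6.98 ± 0.35) and *Tagln* (6.86 ± 0.34), the last ones contractile proteins. Of 10 cytokine and chemokine genes of inflammatory CAFs 6 were higher and 2 lower (median 1.61). *Cxcl12* (5.92 ± 0.48), *Cxcl5* (5.99 ± 0.62) and *Lif* (1.59 ± 0.20) rose toward CD45- cells, and the monocyte attractants *Ccl2* (-1.95 ± 0.40) and *Ccl7* (-1.46 ± 0.32) were higher in CD45+ cells. Of 7 other *Ly6* genes 4 passed the filter, of which *Ly6e* was higher in CD45- cells (0.54 ± 0.23), and *Ly6c2*, *Ly6i* (-3.50 ± 0.70) and *Ly6d* (-3.11 ± 1.18) were lower.

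Markers of other cell types show what else each fraction held. Higher in CD45- cells were also 10 of 10 endothelial genes (median 5.64, led by *Esam*, *Tek* and *Egfl7*), 7 of 8 pericyte and smooth muscle genes (median 6.45, led by *Rgs5*, *Abcc9* and *Mcam*), 2 of 3 tested lymphatic genes (*Flt4* and *Mmrn1*) and 4 of 4 tested osteoblast lineage genes (*Dmp1*, *Ibsp* and *Runx2* first). Of 6 tested luminal epithelial genes 4 were higher (*Krt19*, *Krt8* and *Krt18* first) and *Cdh1* and *Epcam* lower. All 10 genes of the pan-leukocyte, the T cell and the macrophage list, and 4 of 5 tested of the plasmacytoid dendritic or B cell list, were lower in CD45- cells. Between TdT single positive and double negative cells no gene of any list was called. The medians were 0.90 for pan-fibroblast genes, 0.86 for myofibroblast-like CAF genes, 0.27 for the adventitial state, and 0.19 for inflammatory genes, against 0.07 over all genes tested. Of the other cell types they were 1.36 for T cell, 1.10 for pericyte and smooth muscle, 1.09 for macrophage, 0.97 for pan-leukocyte, -0.83 for endothelial and -0.98 for luminal epithelial genes. The members' median was 0.26. Luminal epithelial genes summed to 505 to 1994 CPM in double negative and 33.9 to 936 CPM in TdT single positive libraries, and macrophage genes to 164 to 9222 and 152 to 6769 CPM. Their part in the members' levels was not tested.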

How the data were processed

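RNA from 22 sorted libraries (SMARTer Ultra Low kit) was sequenced as single reads of 50 bases. The authors aligned the reads with STAR 2.0.4b to GRCm38 (Ensembl) and counted unique, unambiguous reads per gene with featureCounts (1.45 in the labels). The deposited files hold raw counts per gene with CPM and RPKM columns, which the authors derived from the counts. Each library was 1 column of counts, grouped by the labels into 4 populations and 2 genotypes. The labels call the libraries biological replicates, and which of the inoculated mice gave which library is not stated.

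From the counts, 355 rRNA genes were left out, and 15043 of 41388 genes with over 1 CPM in at least 2 libraries were tested. One model over the 8 groups was fitted with edgeR 4.0.16 (R 4.3.3, TMM, quasi-likelihood F test, two-sided), with Benjamini-Hochberg adjustment over all genes tested and calls at an adjusted p of at most 0.05. The standard error is the log2 difference over the square root of F. The log2 levels for correlations used a prior count of 2. The step was checked on simulated counts with changes larger than most TdT and genotype differences of the members. That check does not show how often smaller differences would be called. Alternatives were limma 3.58.1 (voom with quality weights), DESeq2 1.42.0, RLE factors, no filter, a replicate block, each library left out, each genotype alone and, chosen after seeing the data, 3 libraries left out. The labels do not say what a shared replicate number marks. Deviations of same-numbered libraries from their group means correlated at over 0.1 in 4 of 4 pairs of TdT single positive with double negative libraries. For the other populations this held in 0 to 3 of the 4 or 6 pairs. Groups of 2 have mirrored deviations, so these 4 values are not independent. The wild type TdT single positive replicate 2 correlated more with the double negative replicate 3 (r = 0.427) than with replicate 2 (0.216). The same-numbered libraries were therefore compared only as possible pairs. Replicates differed by more than sampling noise (chi-square per degree of freedom 49.7 to 409).

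The members and gene lists were chosen with earlier results of these data known. Named genes were all members, *Ly6c2*, the check genes *Ptprc*, *Cdh2* and *Sp7*, the 3 called genes of each list with the lowest adjusted p in each direction and the 3 genes most correlated with each member, of which 1 is not reported here. Transcript windows, promoters and coding sequences came from the reference tables and genome of the same build.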

Additional observations from a re-analysis of the deposited data

How the results depend on the processing

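The CD45 difference kept its direction and call in 239 of 240 combinations of member and alternative, with *Dpp4* within the wild type groups alone as the exception (log2 1.37, adjusted p = 0.0817). In the other 8 comparisons no member was called under any alternative, and 75 of 1824 values changed sign without a call on either side. The cause of the changes was not tested. Between 2 and 3 libraries per group limit what can be called.

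The replicate block was given beside the result for TdT within CD45- cells, where same-numbered libraries may be pairs. It moved the genes called from 9583 to 9162 for CD45 and from 284 to 187 for TdT within CD45- cells. For the interaction of TdT within CD45- cells with genotype they moved from 1 to 0. With the block the sign changed for *Thy1* (genotype in double negative cells, 0.06) and *Dpp4* (TdT within CD45-, -0.10), and no call of a member changed.

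Counts of genes called depended on the tool. For TdT within CD45- (284) they were 710 with voom, 986 with DESeq2, 92 without the filter, 24 in wild type alone, 5 in Cdh2-cKO alone, 765 without the 3 libraries that stand apart and 30 to 872 with 1 library left out. For its interaction with genotype (1) they were 0 with voom, 560 with DESeq2, 2 with RLE factors, 101 without the filter, 0 without the 3 libraries and 0 to 639 with 1 left out. For the CD45 interaction (0) DESeq2 called 31, and 0 to 15 were called with 1 left out. For TdT within CD45+ (1) DESeq2 called 6, and each genotype alone 0. For genotype, DESeq2 called 137 in TdT single positive (1, with voom and without the 3 libraries 0, 0 to 89 with 1 left out), 522 in double negative (0, and 0 to 603), 1 in double positive and 26 in CD45 single positive cells (0 each).

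Sign changes with voom were, for genotype in double negative cells, *Fap* 0.22, *Thy1* 0.15 and *Dpp4* -0.25, for genotype in CD45 single positive cells *Thy1* 0.73 and *Ly6c1* 1.45, for TdT within CD45+ *Thy1* 0.74, *Dpp4* 0.46 and *Ly6a* 0.20, for TdT within CD45- *Cd34* -0.01, and for its interaction *Pi16* 0.12. In wild type alone TdT within CD45- gave *Ly6a* 0.28 and *Ly6c1* 0.41. In Cdh2-cKO alone it gave *Dpt* -0.43, *Dpp4* -0.14 and *Cd34* -0.39, and TdT within CD45+ gave *Pi16* 0.08. Without the 3 libraries, chosen after seeing the data, they were *Fap* 0.76 and *Thy1* 0.09 (TdT interaction), *Fap* 0.13 (genotype, TdT single positive), *Thy1* -0.06 (CD45 interaction), *Thy1* 0.91, *Dpp4* 0.38 and *Ly6a* 0.12 (TdT within CD45+), *Dpp4* -0.07 (genotype, double negative), and *Thy1* 1.23, *Ly6a* 0.18 and *Ly6c1* 1.82 (genotype, CD45 single positive).

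With 1 library left out, the ranges that crossed 0 were as follows. For TdT within CD45- they were *Dpt* -0.07 to 0.43, *Pi16* -0.24 to 1.27, *Dpp4* -0.29 to 0.61, *Cd34* -0.24 to 0.58, *Ly6a* -0.33 to 0.04 and *Ly6c1* -0.45 to 0.07. For its interaction they were *Fap* -2.13 to 0.33, *Pi16* -2.02 to 1.0 and *Dpp4* -1.49 to 0.31. For TdT within CD45+ they were *Fap* -0.47 to 0.16, *Thy1* -1.41 to 0.91, *Dpp4* -1.06 to 0.39 and *Ly6a* -1.18 to 0.13. For the CD45 interaction they were *Thy1* -0.06 to 2.27, *Pi16* -1.25 to 0.07, *Cd34* -0.69 to 0.10 and *Ly6c1* -1.70 to 0.06. For genotype in TdT single positive cells they were *Fap* -2.31 to 0.15, *Pi16* -1.95 to 0.68 and *Dpp4* -1.24 to 0.51. In double negative cells they were *Fap* -0.65 to 0.87, *Thy1* -0.51 to 0.91, *Pi16* -0.70 to 0.85, *Dpp4* -0.07 to 0.87, *Cd34* -0.54 to 0.45 and *Ly6c1* -0.81 to 0.06. In CD45 single positive cells they were *Thy1* -3.09 to 1.22, *Dpt* -0.31 to 1.26, *Pi16* -0.51 to 0.00, *Ly6a* -2.61 to 0.17 and *Ly6c1* -1.55 to 1.82. The wild type CD45 single positive replicate 2 turned *Thy1*, *Dpp4*, *Ly6a* and *Ly6c1* in CD45+ comparisons, and the wild type TdT single positive replicate 2 turned *Pi16*, *Dpp4* and *Cd34* in CD45- ones.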
